A study of Mus musculus with 5 samples.

Results

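The genes described here are 10 imprinted growth genes, namely Dlk1, Meg3, Rian and Dio3 of the Dlk1-Dio3 domain together with H19, Mest, Peg3, Plagl1, Cdkn1c and Grb10. They were found by symbol among the 54532 genes of a count table, each symbol matched 1 gene, and all 10 were among the 15920 genes that passed a filter on low counts. The table holds 5 RNA-seq libraries of adipose-derived stem cells, sorted from the stromal fraction of subcutaneous (SAT) and visceral (VAT) fat of 30 wild-type mice on chow, aged 12 to 14 weeks, with no treatment. Cells carrying CD31 (endothelial) or CD45 (immune) were discarded in every sort, and the rest were gated on CD26, encoded by Dpp4, and on CD142, the tissue factor encoded by F3.

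By title the libraries are 1 of SAT CD26+CD142- cells (SAT library 1), 1 of SAT CD26-CD142+ cells (SAT library 2), 2 of VAT CD26-CD142+ cells and 1 of VAT CD26+CD142+ cells. The library names give SAT library 1 as CD142 and SAT library 2 as CD26, the opposite of their titles, while titles and names give the same gates in VAT. The sort genes ran against the SAT titles: Dpp4 was at 6.57 CPM (counts scaled to library size) in SAT library 1 and 1006 CPM in SAT library 2, and F3 at 618 and 5.32 CPM. In the VAT CD26-CD142+ libraries Dpp4 was at 5.13 and 6.57 CPM, and in the VAT CD26+CD142+ library at 417 CPM. The SAT libraries are therefore called by number, no library was moved on its values, and each gate result that uses them is given by name and by title. Each library is RNA of a pool of cells, and nothing in the labels says whether the libraries came from separate groups of mice, so the p-values measure the spread between these libraries, which may be technical.

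Imprinted genes are expressed from 1 parental copy, set by DNA methylation laid down in the germ line. In the Dlk1-Dio3 domain the protein-coding genes Dlk1, Rtl1 and Dio3 are read from the paternal chromosome, and the noncoding RNAs Meg3, Rian and Mirg, which carry clusters of miRNAs and small nucleolar RNAs, from the maternal chromosome. Many imprinted genes act in opposite directions on fetal growth, and Dlk1, also known as Pref-1, is a classic inhibitor of fat cell differentiation. These counts do not separate the parental copies, and in RNA of pooled cells fewer cells expressing a gene and less RNA per cell cannot be told apart.

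Total counts ran from 21706345 to 25357403 per library. The cells carried mesenchymal progenitor RNA, with the receptor gene Pdgfra between 682 and 1172 CPM and all 8 pan-mesenchymal markers above 1 CPM in every library. The share of mitochondrially encoded genes was 2.83% for SAT library 1 and 4.33% for VAT CD26-CD142+ library 1, against 0.554% to 0.633% for libraries numbered 2. SAT library 1 also stood apart in 5 epithelial markers, which summed to 51.9 CPM there, mostly Epcam and Csn3, and to between 0.129 and 0.535 CPM in the other libraries.

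Levels of the 10 genes spanned a wide range. Per kb of exon, so that genes can be compared, Grb10, Meg3, Cdkn1c and Rian were between 5.46 and 34.5 CPM per kb in every library, Peg3 and Plagl1 between 0.845 and 4.21, and Dlk1, the lowest of the 10 in every library, between 0.0159 and 0.573. Meg3 was the highest of the 10 per kb in SAT library 2 and in the VAT CD26+CD142+ library, Grb10 in SAT library 1, and Cdkn1c in both VAT CD26-CD142+ libraries. Together the 10 genes took from 0.0530% of counts in VAT CD26-CD142+ library 1 to 0.128% in SAT library 2.

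**Figure D1:**
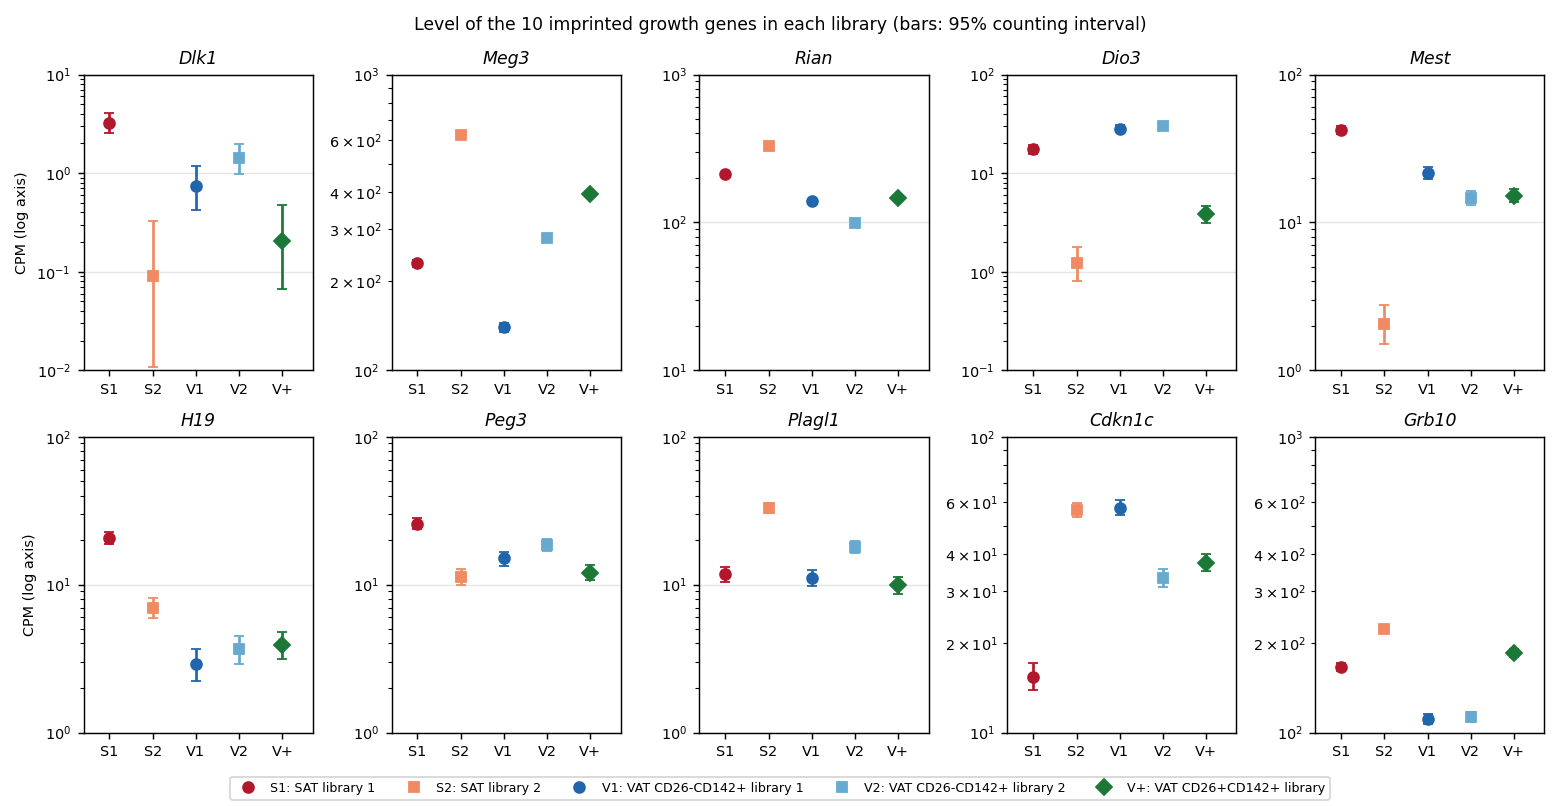
CPM of each of the 10 genes on a log axis in each of the 5 libraries, with 95% exact Poisson intervals that cover counting error only. Dio3 is low in SAT library 2 and in the VAT CD26+CD142+ library, Mest is low in SAT library 2 (2.07 CPM), and H19 and Rian are higher in both SAT libraries than in any VAT library.

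Dio3 encodes the deiodinase that inactivates thyroid hormone. It is a single-exon gene at mm10 chr12:110279068-110281097 on the + strand (ENSMUSG00000075707). Next to it, on the - strand, starts the noncoding gene Dio3os at chr12:110275385-110278172, with 895 bases between the gene bodies, and GENCODE classes Dio3os as a bidirectional promoter RNA. The RefSeq promoter window of Dio3 is shown because Dio3 and Dio3os differed together between libraries. It is chr12:110278980-110279279 of build GRCm38.p6 on the + strand, from 250 bases before to 50 after the RefSeq start. The window begins in the gap between the genes, but most of it lies inside the Dio3 gene body given above. Its CpG dinucleotides are in capitals.
Dio3 promoter: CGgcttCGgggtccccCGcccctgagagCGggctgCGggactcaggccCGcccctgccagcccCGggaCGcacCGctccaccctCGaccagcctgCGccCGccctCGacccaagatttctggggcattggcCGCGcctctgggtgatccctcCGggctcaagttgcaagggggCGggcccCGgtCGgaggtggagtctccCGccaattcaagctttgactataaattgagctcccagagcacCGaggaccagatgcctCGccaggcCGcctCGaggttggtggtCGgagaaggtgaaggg
It holds 25 CpGs, where the median of 32851 RefSeq windows of this length is 7. Its CpG count stands at percentile 81.6 of those windows.

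Dio3 was at 28.2 and 30.4 CPM in the VAT CD26-CD142+ libraries, at 3.83 CPM (95% counting interval 3.09 to 4.69) in the VAT CD26+CD142+ library, at 17.4 CPM in SAT library 1 and at 1.22 CPM (0.802 to 1.77, from 27 counts) in SAT library 2. The libraries with high Dpp4 were the low ones in each depot. Dio3os was at 51.6 and 34.1 CPM in the VAT CD26-CD142+ libraries, 3.05 CPM in the VAT CD26+CD142+ library, 17.8 CPM in SAT library 1 and 0.360 CPM (0.156 to 0.710, from 8 counts) in SAT library 2. It was thus low in the same libraries as Dio3, and the ratio of Dio3 to Dio3os counts lay between 0.547 and 3.38, highest in SAT library 2.

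**Figure D2:**
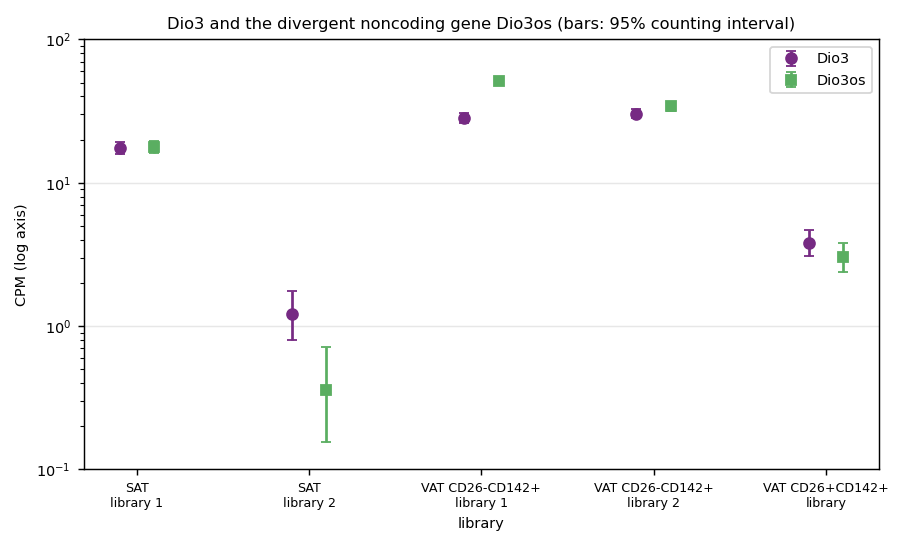
CPM of Dio3 and Dio3os on a log axis in each of the 5 libraries, with 95% counting intervals. Both genes are lowest in SAT library 2 (1.22 and 0.360 CPM) and next lowest in the VAT CD26+CD142+ library (3.83 and 3.05 CPM).

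Which genes differ between CD26+CD142+ and CD26-CD142+ cells was tested in VAT, where the labels do not conflict. Dio3 fell 7.65-fold in the VAT CD26+CD142+ library, from 29.3 ± 1.56 CPM (SD, n = 2), a log2 change of -2.93 (SE 0.57, edgeR quasi-likelihood test, adjusted p = 0.0133). It was the 1 of the 10 genes that passed, against 0.697% of all tested genes that passed as lower. Dio3os fell 14.0-fold (log2 -3.81, SE 0.61, adjusted p = 0.00355). Dio3 passed under all 9 alternatives that allowed a test, with adjusted p from 0.000173 to 0.0196, and leaving out either VAT CD26-CD142+ library, which leaves no test, gave log2 values of -2.99 and -2.87. The single CD26+CD142+ library was assumed to vary like the pair it was compared with.

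Other RNAs differed between the VAT gates as well, and not every marker of a list went the same way. Committed preadipocyte markers summed to 4425 and 2756 CPM in the CD26-CD142+ libraries and to 531 CPM in the CD26+CD142+ library, with 3 of 7 (Pparg, Car3, Apoe) called lower. Mural markers summed to 58.3 and 92.2 against 15.6 CPM, with 1 of 5 (Myh11) called lower. Of these 5, 3 had a negative log2 change and 2 a positive one. Mesothelial markers summed to 114 and 170 against 343 CPM, with 2 of 8 (Msln, Gpm6a) called higher, 7 positive and 1 negative. Of the mesothelial markers, Bnc1, Lrrn4 and Upk1b were at 0 in VAT CD26-CD142+ library 1. Endothelial markers summed to 72.0 and 74.3 against 299.8 CPM, mostly Tek, with 1 of 6 (Tek) called higher, 4 positive and 2 negative. Adipocyte markers summed to 9.80 and 18.1 against 0.741 CPM, with 1 of 4 tested (Plin1) called lower and all 4 negative. All 7 CD26+ interstitial markers were called higher, and their sum went from 571 and 537 CPM to 4332 CPM. The CD142+ markers, of the gate that both groups share by label, summed to 4375 and 3696 against 1613 CPM. All 7 of them were lower, with 0 called. Among them F3 was between 241 and 378 CPM in the CD26-CD142+ libraries and at 99.0 CPM in the CD26+CD142+ library. The mitochondrial share was 4.33% and 0.633% in the CD26-CD142+ libraries and 0.620% in the CD26+CD142+ library. The part of these cells and of the mitochondrial share in the Dio3 result was not tested.

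Dlk1 (ENSMUSG00000040856, chr12:109452823-109463336, + strand) had few counts in every library. The SAT libraries held 75 and 2 counts of it (3.24 and 0.0901 CPM), the VAT CD26-CD142+ libraries 16 and 33 (0.733 and 1.42 CPM) and the VAT CD26+CD142+ library 5 (0.206 CPM). The low libraries, at 2 and 5 counts, were those in which Dio3 was low. In VAT the log2 change was -2.36 (SE 1.25, adjusted p = 0.755), which did not pass. Rtl1, a retrotransposon-derived gene of placenta and muscle that lies on the - strand between Dlk1 and Dio3, was between 0.515 and 0.778 CPM in 4 libraries and at 1.85 CPM in SAT library 2, the library lowest in Dlk1 and Dio3. Genes of + strand miRNAs, among them Mir127 and Mir136, lie within the span of Rtl1. The strand setting of the counting is not given in the sources used here, so the counts of Rtl1 may include + strand RNA.

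Meg3 (ENSMUSG00000021268, chr12:109541001-109571726, + strand), a noncoding RNA with growth-suppressing activity, was at 230 CPM in SAT library 1, 623 CPM in SAT library 2, 140 and 280 CPM in the VAT CD26-CD142+ libraries and 394 CPM in the VAT CD26+CD142+ library. Within each depot the library with high Dpp4 had the most Meg3. The difference was 0.91 on the log2 scale in VAT (SE 0.53, adjusted p = 0.864) and did not pass, the VAT CD26-CD142+ pair itself running from 140 to 280 CPM.

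Rian (ENSMUSG00000097451, chr12:109603940-109661716, + strand), the host of small nucleolar RNAs and miRNAs, was at 211 and 328 CPM in SAT libraries 1 and 2, 139 and 99.5 CPM in the VAT CD26-CD142+ libraries and 146 CPM in the VAT CD26+CD142+ library. It did not follow Meg3 closely, and the ratio of Meg3 to Rian counts ran from 1.01 in VAT CD26-CD142+ library 1 to 2.82 in library 2 of the same gate. Mirg, the last noncoding gene of the run, was at 16.4 and 11.6 CPM in SAT and between 4.78 and 10.2 CPM in VAT.

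Over the domain, 118 annotated genes lie in the 828 kb from Dlk1 to Dio3, of which 79 had no count in any library and 9 passed the filter. Per kb of exon, Dlk1, Rtl1 and Dio3 together made up 45.7% and 41.4% of the sum of these genes and Meg3, Rian and Mirg in the VAT CD26-CD142+ libraries, 6.22% in the VAT CD26+CD142+ library, 25.9% in SAT library 1 and 1.65% in SAT library 2. Dio3 gives most of the coding part, and Meg3 and Rian most of the noncoding part. The library with high Dpp4 had the lower share in each depot; this sum was described and not tested.

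**Figure D3:**
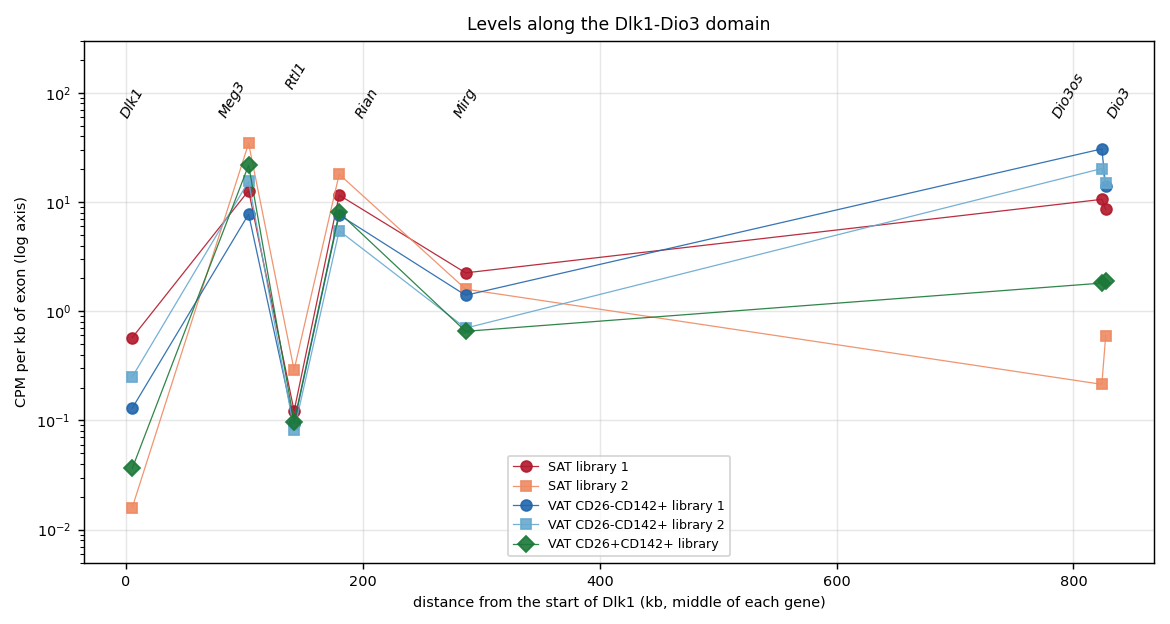
CPM per kb of exon (log axis) of 7 genes of the domain against the distance of each gene's middle from the start of Dlk1, in kb; points of a library are joined only to guide the eye. The 5 libraries lie closer together at the genes in the middle of the domain than at Dlk1, Dio3os and Dio3 at its ends.

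Several of the 10 genes host miRNAs, which poly(A)-selected libraries do not measure. By coordinates, 13 mature RefSeq miRNAs lie in Meg3, Rian, H19 and Mest, with 13 different seeds, so none shares a seed with another. Both arms from Mest and H19, hosts whose levels differed between the SAT libraries, and 1 miRNA each from Meg3 and Rian are shown to identify the products, with the seed (bases 2 to 8) in capitals.
mmu-miR-335-5p (Mest): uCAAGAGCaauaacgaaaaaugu
mmu-miR-335-3p (Mest): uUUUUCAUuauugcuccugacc
mmu-miR-675-5p (H19): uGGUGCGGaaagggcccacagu
mmu-miR-675-3p (H19): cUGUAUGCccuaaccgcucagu
mmu-miR-770-5p (Meg3): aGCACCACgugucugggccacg
mmu-miR-370-3p (Rian): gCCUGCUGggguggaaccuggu
In the whole domain RefSeq lists 58 hairpins with 114 mature miRNAs, 106 of them on the + strand, the strand of Meg3, Rian and Mirg.

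Mest (ENSMUSG00000051855, chr6:30723547-30748465, + strand), a paternally expressed hydrolase-like gene linked to fat cell size, was at 42.1 CPM in SAT library 1, 2.07 CPM (1.52 to 2.76, from 46 counts) in SAT library 2, 21.6 and 14.6 CPM in the VAT CD26-CD142+ libraries and 15.2 CPM in the VAT CD26+CD142+ library. SAT library 2 alone was low, and the VAT libraries overlapped. In VAT the log2 change was -0.26 (SE 0.50, adjusted p = 1.00) and did not pass. Of its exon bases, 23.1% overlap Copg2 on the other strand, whose counts stayed between 453 and 626, and the strand setting of the counting is not given in the sources used here.

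The difference between the SAT libraries has no replicate and no test, and its intervals cover counting error only. Where a call needs a 2-fold difference and 10 CPM on the higher side, 4 of the 10 genes were lower in SAT library 2, where 6.79% of all tested genes were, and 3 were higher, where 6.78% were. Mest was 20.3-fold lower in SAT library 2 (15.1 to 28.0), Dio3 14.3-fold (9.69 to 22.0), H19 2.96-fold (2.46 to 3.57) and Peg3 2.29-fold (1.98 to 2.67). The genes higher there were Cdkn1c, 3.66-fold (3.25 to 4.13), Plagl1, 2.80-fold (2.43 to 3.23), and Meg3, 2.71-fold (2.62 to 2.79). Rian (1.55-fold) and Grb10 (1.35-fold) were higher by less than 2-fold, and Dlk1, 36.0-fold lower (9.62 to 303), stayed under 10 CPM. Dio3os was 49.4-fold lower (24.8 to 115).

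The same libraries differed in other RNAs as well. SAT library 1 had the epithelial markers given above (51.9 against 0.180 CPM, with Csn3 at 0 in SAT library 2) and a mitochondrial share of 2.83% against 0.554%. All 7 CD26+ interstitial markers were called higher and all 7 committed preadipocyte markers lower in SAT library 2. Also called lower there were 6 of 7 CD142+ markers, 3 of 8 pan-mesenchymal markers (Pdgfrb, Col3a1 and Lum) and 1 of 8 mesothelial markers. The last was Krt19, at 63.7 and 3.74 CPM in SAT libraries 1 and 2. Of the pan-mesenchymal markers 2 had a positive log2 difference and 6 a negative one. Endothelial markers summed to 31.8 CPM in SAT library 1 and 313 CPM in SAT library 2, mostly Tek (19.8 and 290 CPM). Of these 6 markers 1 (Tek) was called higher, 5 had a positive log2 difference and 1 a negative one. Pecam1 was at 6.35 and 7.25 CPM. Adipocyte markers summed to 16.7 and 0.406 CPM in SAT libraries 1 and 2. The part of these RNAs in the differences of the 10 genes between the SAT libraries was not tested.

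**Figure D4:**
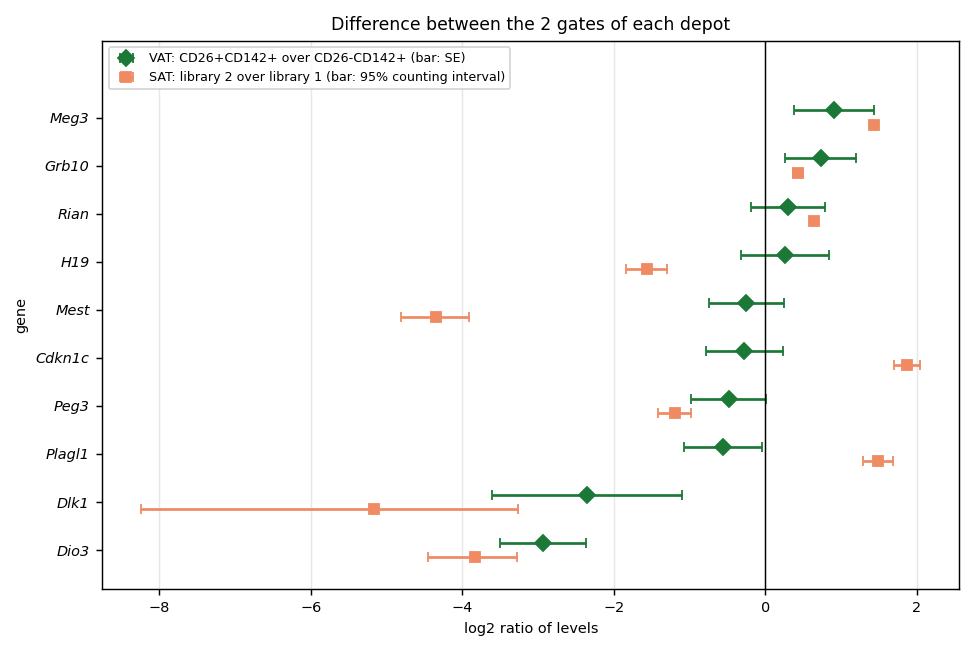
Log2 ratio of each gene between the VAT CD26+CD142+ library and the VAT CD26-CD142+ libraries (diamonds, bars are SE) and between SAT library 2 and SAT library 1 (squares, bars are 95% counting intervals). Dio3 is far below 0 in both comparisons, whereas Mest is far below 0 in SAT (20.3-fold lower) and near 0 in VAT.

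H19 (ENSMUSG00000000031, chr7:142575529-142578143, - strand), a maternally expressed noncoding RNA with a growth-limiting role, was at 20.7 and 6.98 CPM in SAT libraries 1 and 2, at 2.88 and 3.65 CPM in the VAT CD26-CD142+ libraries and at 3.91 CPM in the VAT CD26+CD142+ library. Both SAT libraries lay above all VAT libraries. Its neighbour Igf2, the fetal growth factor gene with which it shares enhancers, had 5 counts in SAT library 1 and 0 in the other libraries, which allows up to 0.137 CPM in any of those.

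Whether depots differ over all gates was tested with SAT against VAT, which does not use the SAT gate labels. With edgeR 0 of the 10 genes passed, where 0.0503% of all tested genes did, and with limma-voom 0 passed. At an unadjusted edgeR p under 0.05 were 2 of the 10, and 1076 of all 15920 tested genes. The smallest p-values were those of H19, with a SAT mean of 13.8 ± 9.67 CPM (SD, n = 2) and a VAT mean of 3.48 ± 0.534 CPM (SD, n = 3; log2 1.99, SE 0.51, edgeR adjusted p = 0.469), and Rian, with a SAT mean of 269 ± 82.4 CPM and a VAT mean of 128 ± 25.2 CPM (log2 1.07, SE 0.32, adjusted p = 0.543). Those 2 genes had both SAT libraries above all 3 VAT libraries, as did 9.64% of all tested genes. With DESeq2 H19 passed (adjusted p = 0.0309), where 2.92% of all tested genes did. Of the 10 genes 8 had a positive log2 difference and 2 a negative one, with a median of 0.58, against 0.01 for all tested genes.

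Cdkn1c (ENSMUSG00000037664, chr7:143458339-143461050, - strand), which encodes the cyclin-dependent kinase inhibitor p57, was at 15.4 CPM in SAT library 1, 56.5 CPM in SAT library 2, 57.6 and 33.2 CPM in the VAT CD26-CD142+ libraries and 37.5 CPM in the VAT CD26+CD142+ library. SAT library 1 alone was low. Of its exon bases, 30.7% overlap the opposite-strand gene Gm44732, which had at most 6 counts in a library.

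Plagl1 (ENSMUSG00000019817, chr10:13060504-13131694, + strand), a zinc finger factor known to act on a network of imprinted genes, was at 11.8 and 32.9 CPM in SAT libraries 1 and 2, 11.1 and 18.0 CPM in the VAT CD26-CD142+ libraries and 9.88 CPM in the VAT CD26+CD142+ library. SAT library 2 held the highest level, and the levels of SAT and VAT libraries overlapped. Peg3 (ENSMUSG00000002265, chr7:6703892-6730431, - strand), a paternally expressed zinc finger gene, was at 25.8, 11.3, 15.0, 18.6 and 12.0 CPM in the same order of libraries. Its lowest levels were in the libraries with high Dpp4.

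Grb10 (ENSMUSG00000020176, chr11:11930508-12038683, - strand), an adaptor that restrains insulin and growth factor signalling, was at 166 and 224 CPM in SAT libraries 1 and 2, 111 and 113 CPM in the VAT CD26-CD142+ libraries and 186 CPM in the VAT CD26+CD142+ library. The VAT pair lay close together (112 ± 1.03 CPM, SD, n = 2), yet the VAT difference of 0.73 (SE 0.47, adjusted p = 0.947) did not pass. Beyond Dio3, the VAT log2 values of the 10 genes ran from -2.36 for Dlk1 to 0.91 for Meg3; in all, 4 were positive and 6 negative, with a median of -0.27 against -0.03 for all tested genes.

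A CD26 effect shared by the depots was tested with depot as a term. By library name, Dio3 was at 2.52 ± 1.85 CPM (SD, n = 2) in CD26+ and 25.3 ± 6.95 CPM (SD, n = 3) in CD26- libraries and fell by 3.29 on the log2 scale (SE 0.33, edgeR adjusted p = 0.0403). It was again the 1 of the 10 genes called, where 0.276% of all tested genes were called lower, and the call was lost with the library number as a replicate block, at a log2 value of -3.21 (SE 0.38, adjusted p = 0.255). Dio3os fell by 4.39 (SE 0.53, adjusted p = 0.0499), a call lost with the block (-3.77, adjusted p = 0.289) and with limma-voom (-4.20, adjusted p = 0.0535). This comparison shares the VAT libraries with the VAT one. Meg3 (1.14, SE 0.38, adjusted p = 0.262), Grb10 (0.60, SE 0.22, adjusted p = 0.289), Dlk1 (-3.43, SE 0.97, adjusted p = 0.206) and Peg3 (-0.79, SE 0.28, adjusted p = 0.285) did not pass, although for each of them, as for Dio3, the libraries named CD26+ lay on one side of all the others. That held for 5 of the 10 genes and for 34.1% of all tested genes. With DESeq2 Dlk1 (adjusted p = 0.0230) and Meg3 (adjusted p = 0.0487) passed by name as well, where 8.4% of all tested genes did. Without VAT CD26-CD142+ library 2 Meg3 passed (1.47, edgeR adjusted p = 0.0388), where 13.2% of all tested genes did. In that fit the libraries named CD26- are those numbered 1 and the libraries named CD26+ those numbered 2. Gate and library number cannot be told apart there, so the pass is no separate evidence on CD26. Without the VAT CD26+CD142+ library, Mest passed (-4.33, edgeR adjusted p = 0.00336), where 3.39% of all tested genes did; that value is the difference between the single SAT libraries set against the spread of the VAT CD26-CD142+ pair, and is no replicated test of CD26. By title, 0 of the 10 genes and 0% of all tested genes passed with edgeR, with 140 genes at an unadjusted p under 0.05; limma-voom called 0 and DESeq2 16 genes.

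Whether the gate effect differs between depots was tested as SAT minus VAT. By library name, Mest was the 1 of the 10 genes that passed, where 0.251% of all tested genes did, with a difference of -4.09 on the log2 scale (SE 0.78, adjusted p = 0.0377). That call was lost with limma-voom (adjusted p = 0.148). Dio3 did not pass (-0.90, SE 0.78, adjusted p = 1.00). By title, Mest (4.60), Dio3 (6.77) and Dlk1 (7.44) passed, where 6.61% of all tested genes did.

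Other genes of imprinted loci and of thyroid hormone action were read from lists. In VAT, 254 of all 15920 tested genes were called in either direction. Of 11 measured imprinted neighbours of the 10 genes, 1 was called there, Cobl, the actin nucleator gene beside Grb10. Cobl was at 0.0916 and 0.172 CPM in the CD26-CD142+ libraries, where 3 counts make 0.137 and 0.129 CPM, and at 3.25 CPM in the CD26+CD142+ library. The size of its change in VAT thus rests on very few counts on the low side. In SAT libraries 1 and 2 it was at 0.778 and 15.1 CPM. It rose by 4.56 (SE 0.80, adjusted p = 0.00747; 0.132 with limma-voom) in VAT. By name it rose by 4.41 (SE 0.46, adjusted p = 0.0407), a call lost with the replicate block at a log2 value of 4.08 (adjusted p = 0.305). Of 32 other imprinted genes, 1 was called in VAT, the creatine synthesis gene Gatm, at 61.9 and 22.1 CPM against 1.07 CPM (log2 -5.29, SE 0.82, edgeR adjusted p = 0.00591). In SAT libraries 1 and 2 Gatm was nearly absent, at 0.605 and 0.0451 CPM (14 counts and 1 count), so its result by name rests mainly on VAT. By name Gatm did not pass with edgeR (adjusted p = 0.0848), but passed with DESeq2 (log2 -5.07, adjusted p = 1.2e-09) and in 6 of 13 alternatives in all. Those 6 include the fits that leave out either SAT library, which repeat the VAT comparison and are no separate test by name. They also include the fit without VAT CD26-CD142+ library 2, in which gate cannot be told apart from library number. Between the SAT libraries, 2 of 11 neighbours were higher in SAT library 2 (Cobl, 19.4-fold, and Phactr2, 2.48-fold) and 2 lower (Cd81, 2.45-fold, and Tssc4, 2.23-fold). Of the other imprinted genes, Slc38a4 (5.42-fold) and Ppp1r9a (3.77-fold) were higher, and Nap1l5 (20.8-fold) and Commd1 (2.26-fold) lower. In the Dlk1-Dio3 list of 4 measured genes beyond the 10, Dio3os and Begain (4.32-fold) were lower.

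Dio3 acts on thyroid hormone, and of 11 measured genes of that pathway 0 passed with edgeR in VAT, by name, by title or between depots. At an unadjusted p under 0.05 there was 1 by name, 1 between depots and 0 in the others, limma-voom called 0 in each, and DESeq2 called 1, the transporter gene Slc16a10, between depots. At that edgeR threshold were 2551 of all 15920 tested genes by name and 1076 between depots, and DESeq2 called 2.92% between depots. The receptor gene Thra was between 112 and 182 CPM, and Dio2, the activating deiodinase gene, was at or below 0.476 CPM in every library. Between the SAT libraries, the hormone-responsive gene Klf9 was 2.01-fold higher in SAT library 2. Of 12 measured factors that maintain imprints, 0 passed in the same edgeR comparisons or with DESeq2 or limma-voom, with 1 at an unadjusted edgeR p under 0.05 by name, 1 between depots and 0 in the others. Among them were the maintenance methyltransferase gene Dnmt1, between 19.4 and 51.5 CPM, and the imprint-binding factor gene Zfp57, between 0.315 and 2.68 CPM. The motif TGCCGC that ZFP57 binds, sought on both strands, is in 5 of the 12 promoter windows that 8 of the 10 genes have, those of Mest (a pair that overlaps nearly whole), Plagl1, Grb10 and Meg3, and in 11.6% of all windows.

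The genes most like each of these in pattern were ranked by the root mean square difference of centred log2(CPM + 1) over the 5 libraries. For Dio3 they were Fblim1 (0.21) and Rasl12 (0.25), and for Mest Tmem119 (0.28), Cdh11 (0.35) and Vit (0.37). For Meg3 they were Hip1r (0.10), Elf4 (0.12) and Rnf213 (0.13), for Rian Galm (0.09), Phf11d (0.10) and Ugcg (0.12), and for H19 B3gnt3 (0.15), Apol6 (0.22) and Prss12 (0.26). For Grb10 they were Parva (0.04), Ahnak (0.05) and Dse (0.05), for Peg3 Col6a2 (0.06) and Rpl17-ps10 (0.07), for Plagl1 Sdc4 (0.11), Gabre (0.18) and Steap2 (0.20), and for Cdkn1c Pgf (0.24), Serpine2 (0.26) and Ogn (0.26). Dlk1 was under 10 CPM in every library and was not ranked. With 5 libraries and 9807 candidate genes, close matches are a description only. Fblim1 was at 20.2 and 19.9 CPM in the VAT CD26-CD142+ libraries, 1.73 CPM in the VAT CD26+CD142+ library, 11.5 CPM in SAT library 1 and 0.946 CPM in SAT library 2, the same low pair as for Dio3.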

How the data were processed

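Poly(A)-selected RNA of 5 sorted cell pools was sequenced. The deposited values are whole counts of reads per gene, not normalized by the authors; per the submitters' processing notes, reads were handled with HISAT2 2.0.5 and featureCounts 1.5.0-p3 on mm10 after CASAVA, while the annotation release and strand setting are not given in the sources used here. A gene length in bases, another unit of the deposited table, equals the exon length in GENCODE M21 for all 10 genes. Groups are the titles; for SAT the library names give the opposite gates, and both were used.

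Counts were scaled by TMM, filtered by filterByExpr (minimum count 10, 15920 genes kept, 38612 removed) and tested with edgeR 4.0.16 quasi-likelihood F tests; p-values were adjusted over the whole set of tested genes (Benjamini-Hochberg, threshold 0.05). Each SE was taken as the absolute log2 change over the root of its F statistic. Residual degrees of freedom were 3 for depot, 1 for the VAT gate and for the difference between depots, and 2 for the CD26 gate. Alternatives included DESeq2 1.42.0 and limma 3.58.1. Intervals at 95% are exact Poisson or exact conditional, and the limit for a count of 0 is 3 counts in the library; they cover counting error only, since reads are not independent molecules. The SAT libraries were compared without a test, with a pseudocount of 1 CPM for calls. The scripts were tested on simulated data.

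The members and lists were chosen with earlier results of these data known. All 10 genes are named, with genes of the lists that were called and the 3 most alike genes by root mean square difference among genes at 10 CPM or more in 1 library; the rule also asked for the largest uncalled changes of each list, and few of those are named. Some genes the rule picks are not reported here. Cell type markers are given mainly as sums. Sequences are RefSeq's for GRCm38.p6; 8 of the 10 genes had a promoter entry.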

Additional observations from a re-analysis of the deposited data

Results flagged for a closer look

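The gate effect differed between depots by a test of the difference itself in edgeR (SAT minus VAT, log2), run once with each set of SAT labels. By library name 1 of the 10 genes passed, where 0.251% of all tested genes did: Mest differed by -4.09 (adjusted p = 0.0377, lost with limma-voom, adjusted p = 0.148). By title 3 of the 10 passed, where 6.61% of all tested genes did. Mest differed by 4.60 (adjusted p = 0.00242), Dio3 by 6.77 (adjusted p = 0.000154) and Dlk1 by 7.44 (adjusted p = 0.0329, lost with limma-voom, adjusted p = 0.120). The sign and the genes depend on which SAT label is taken, and Dpp4 and F3 ran against the SAT titles. Each SAT side is a single library. The VAT libraries are the same in both.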

How the results depend on the processing

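Among all genes, calls moved with the model. Between depots 8 genes passed, against 70 with no filter, 465 with DESeq2, 0 with limma-voom (963 at unadjusted p under 0.05), 5 with the library number as a replicate block, 0 with a term for CD26 by title (682) and 83 with that term by name. In VAT 254 became 491 with no filter and 410 when scaled by upper quartiles. By title 0 became 16 with DESeq2. By name 95 became 775 with no filter, 1338 with DESeq2 and 0 with the block (1592 at unadjusted p under 0.05). For the difference between depots, 40 by name became 136 with upper-quartile scaling, 181 with no filter, 85 with DESeq2 and 10 with limma-voom, and 1053 by title became 1621 with no filter. With 1 library left out, counts ran from 0 to 17 (depot), 356 to 383 (VAT, leaving out a SAT library), 0 to 522 (title) and 138 to 2034 (name). The causes were not tested.

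Between depots, signs turned for Dlk1 with the block (-0.22) and for Mest with limma-voom (-0.81), the block (-0.99) and CD26 by title (-0.94) or name (-0.17). By title they turned for Meg3 with upper-quartile scaling (0.0044) and the block (0.14), for Dio3 (limma-voom -0.97, block -0.56), Dio3os (limma-voom -1.76, block -0.69) and Cobl (limma-voom -2.08). By name they turned with the block for Plagl1 (-0.39) and Mirg (0.065). None of these passed in the main design.

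With 1 library left out, signs turned in results that had not passed in the main design. By title and by name, a fit without either SAT library repeats the VAT comparison. By title, a fit without the VAT CD26+CD142+ library gives the difference between the single SAT libraries. Turned values from such fits are no separate evidence on a shared CD26 effect. Between depots the turned log2 values were 0.024 to 0.39 (Cdkn1c), -0.61 (Cobl), -3.05 (Dlk1), -0.25 (Meg3), -3.05 (Mest), -0.44 (Peg3) and -0.15 (Plagl1), and in VAT 0.17 (Cdkn1c) and 0.051 (Mest). By name they were -0.27 to -0.26 (Cdkn1c), 0.27 (H19) and -0.55 to -0.54 (Plagl1). By title they were -4.28 to -0.25 (Cobl), -2.92 (Dio3), -3.80 (Dio3os), -2.35 to -2.34 (Dlk1), 3.58 (Gatm), -0.44 (Grb10), 0.028 to 0.92 (Meg3), -0.25 to -0.24 (Mest), 0.21 to 0.48 (Mirg), -0.47 (Peg3), 0.30 to 0.31 (Rian) and 0.16 to 0.17 (Rtl1). For the difference between depots by name they were 0.059 (Cobl), -0.056 (Meg3) and -0.41 (Mirg).

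The library number is the only label that could pair libraries. Deviations from the depot mean correlated at 0.662 in the pair numbered 1, and SAT library 2 at 0.0195 and 0.646 with the VAT libraries numbered 2. Centring within depots ties these values to each other, and they mix gate with number. They cannot tell what the number stands for. The mitochondrial share was 2.83% and 4.33% in the libraries numbered 1 and 0.554% to 0.633% in those numbered 2. No paired fit of the VAT gate was possible because no residual degrees of freedom were left. The depth limits Dlk1, with 2 counts in SAT library 2.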
